A study of Arabidopsis thaliana with 4 samples.

Results

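LHCB2 is a small gene family of Arabidopsis thaliana that encodes a chlorophyll-binding protein of the major light-harvesting antenna of photosystem II. The tails of its mRNAs were read by TAIL-seq, which sequences individual 3′ ends of RNA and gives both how many A each end carries and which nucleotides follow them. The family was taken by locus number: LHCB2.1 is AT2G05100, LHCB2.2 is AT2G05070 and LHCB2.3 is AT3G27690. These are 3 of the 8346 loci with reads in the table, and the rule uses locus numbers only. The libraries came from seedlings of 4 genotypes aged 2 weeks, grown on soil with 16 h of light and 8 h of darkness. The urt1 xrn4 plants carry urt1-1 and xrn4-3 together, the urt1 plants carry urt1-1 (Salk_087647C), the xrn4 plants carry xrn4-3 (SALK_014209), and WT carries neither allele and is labelled as ecotype Col0. There was 1 library per genotype, so no difference between genotypes below has a replicate check, and all intervals (95%) cover counting error only.

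URT1 is a uridylyltransferase that adds U to mRNA tails that have lost most of their A. XRN4 is the cytoplasmic exonuclease that degrades mRNAs from the 5′ end once the cap is removed. LHCB2 proteins form trimers with LHCB1, and LHCB2 carries a phosphorylation site used in state transitions, when part of the antenna moves between photosystem II and photosystem I. Genes of the antenna are among the most transcribed nuclear genes of green tissue. The design asks how much of the U on mRNA tails depends on URT1, and what is seen when decay from the 5′ end is impaired.

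Per the annotation of TAIR10.1, LHCB2.1 lies on the minus strand of chromosome 2 from 1822990 to 1824480, and LHCB2.2 on the same strand from 1799234 to 1800472. LHCB2.3 lies on the plus strand of chromosome 3 from 10255906 to 10257489. Each gene has 2 exons. The coding sequences of LHCB2.1 and LHCB2.2 (798 bases each) are identical at 96.6% of positions, with an identical stretch of 152 bases. LHCB2.3 (801 coding bases) is 80.3% identical to LHCB2.1 and 79.9% identical to LHCB2.2. The last 60 coding bases are shown because they bear on how reads can be told apart, with the 10 positions that are not the same in all 3 genes in capitals.
LHCB2.1: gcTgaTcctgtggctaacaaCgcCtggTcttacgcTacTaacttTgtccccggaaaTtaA
LHCB2.2: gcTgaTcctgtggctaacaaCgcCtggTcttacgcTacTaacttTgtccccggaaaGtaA
LHCB2.3: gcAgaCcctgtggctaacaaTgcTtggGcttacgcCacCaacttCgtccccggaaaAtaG
LHCB2.1 and LHCB2.2 differ at 1 of these positions, so a read of this stretch could be assigned to the wrong one of this pair. Their annotated 3′ UTRs (459 bases in LHCB2.1 and 202 in LHCB2.2) lie between these bases and the tail and were not compared. The split of reads between LHCB2.1 and LHCB2.2 was not tested and is taken as uncertain, while LHCB2.3 differs from each of them at 10. The 3 genes summed do not depend on that split.

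The tails that carried the results are shown next, read 5′ to 3′, with the A tract in small letters and the nucleotides recorded as added in capitals (T stands for U). The end of 4 A and 2 U on LHCB2.1 has letters that also occur in the gene, and whether it was a tail was not tested. The uridylated ends shown were chosen from among those read most often in a library, and the most frequent end of LHCB2.2 in urt1 is given for contrast. The most frequent end of LHCB2.2 in WT was also unmodified (22 A, 8 reads). That of LHCB2.1 was unmodified in urt1 and WT (16 A, 20 and 6 reads) and carried 1 G in xrn4 (8 A, 6 reads).
LHCB2.2 in xrn4, 7 reads: aaaaaaaaaaaTT
LHCB2.2 in xrn4, 5 reads: aaaaaaaaTATTT
LHCB2.2 in WT, 6 reads: aaaaaaaaaaaTTT
LHCB2.2 in urt1, 35 reads: aaaaaaaaaaaaaaaa
LHCB2.1 in xrn4, 3 reads: aaaaaaaaaaTTTTT
LHCB2.1 in urt1, 10 reads, and in WT, 5 reads: aaaaTT
LHCB2.3 in WT, 5 reads: aaaaaaaaaT

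The table held 26300 reads for urt1 xrn4, 43391 for urt1, 9797 for xrn4 and 10304 for WT, with A tracts of 4 to 30 nt, so longer tails were not analysed here. No read was assigned to URT1 or XRN4 in any library, so their own reads could not check the labels. A count of 0 was taken throughout to allow up to 3 counts, which is 114 CPM (reads scaled to all reads of the library in the table) in urt1 xrn4, 69.1 in urt1, 306 in xrn4 and 291 in WT. The 3 LHCB2 genes had 349 reads in urt1 xrn4, 602 in urt1, 123 in xrn4 and 182 in WT, each read being 1 tail. LHCB2.2 ranked 6th, 6th, 9th and 4th among all loci by reads in urt1 xrn4, urt1, xrn4 and WT, a high rank for an antenna gene in each library labelled as seedlings. Reads carry no molecular identifiers, and many were identical in gene, A length and extension. Distinct ends were 25% of LHCB2.2 reads in urt1 xrn4, 14% in urt1, 48.7% in xrn4 and 40.8% in WT. Copies of 1 molecule cannot be told apart from separate molecules with the same end. To the extent that they are copies, counting intervals are too narrow, by an amount that was not tested. Unmodified tails of a gene have only 1 end per A length from 4 to 30. Counting identical ends once therefore removes more unmodified tails where a gene is read more deeply.

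LHCB2.2, the best read of the 3 genes, was uridylated on many tails in xrn4 and WT and on few in the libraries with urt1-1. It had 32 uridylated tails of 204 in urt1 xrn4, 25 of 393 in urt1, 46 of 76 in xrn4 and 46 of 103 in WT. These are 15.7% (11 to 21.4), 6.36% (4.16 to 9.25), 60.5% (48.6 to 71.6) and 44.7% (34.9 to 54.8). The intervals of the urt1 and urt1 xrn4 libraries did not overlap those of xrn4 and WT. How many other genes had intervals apart in this way was not counted. The share in urt1 was 7.02-fold lower than in WT (difference -38.3 points, -48.1 to -28.6). In urt1 xrn4 it was 3.86-fold lower than in xrn4 (-44.8 points, -56.0 to -32.3) and 2.85-fold lower than in WT (-29.0 points, -39.5 to -18.2). Of genes with 20 or more tails in each library compared, 65.5% of 58 were at least 2-fold lower in urt1 over WT, 61.7% of 47 in urt1 xrn4 over xrn4 and 47.2% of 53 in urt1 xrn4 over WT. A share 2-fold lower was therefore common to many genes. In size the difference of LHCB2.2 ranked 8th lowest of 58 genes in urt1 over WT, 9th lowest of 47 in urt1 xrn4 over xrn4 and 8th lowest of 53 in urt1 xrn4 over WT. The median differences over those genes were -11.3, -20.6 and -8.21 points.

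Between the double mutant and urt1, LHCB2.2 had a higher share in urt1 xrn4, by 9.32 points (4.12 to 15.3), a 2.47-fold higher share. A share at least 1.5-fold higher was found in 50.2% of 203 genes in that comparison, with a median difference of 2.33 points. In xrn4 the share was 15.9 points above WT (1.07 to 29.6), less than the 1.5-fold used as threshold, which 47.1% of 34 genes passed. With identical ends counted once it was 4.38 points (56.8% in xrn4 against 52.4% in WT), and with mixed extensions of U and A left out of the uridylated tails it was 3.62 points (43.4% in xrn4 against 39.8% in WT). The 4 shares with identical ends counted once were 35.3% in urt1 xrn4, 30.9% in urt1, 56.8% in xrn4 and 52.4% in WT, in the same order of libraries. The difference was then -21.5 points in urt1 minus WT, -21.5 points in urt1 xrn4 minus xrn4, -17.1 points in urt1 xrn4 minus WT and 4.39 points in urt1 xrn4 minus urt1. None of the 2-fold differences of LHCB2.2 given above remained 2-fold when ends were counted in this way. However, this count reduces unmodified tails to at most 1 end per A length, however many molecules were read. LHCB2.2 had 350 unmodified tails in urt1 and 57 in WT, so the counting itself raises its share more in urt1. It therefore cannot show whether the 2-fold differences rest on copies of the same molecules.

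LHCB2.1 showed smaller differences and its libraries overlapped more. It had 21 uridylated tails of 120 in urt1 xrn4, 22 of 176 in urt1, 11 of 44 in xrn4 and 15 of 63 in WT. The shares were 17.5% (11.2 to 25.5), 12.5% (8.00 to 18.3), 25% (13.2 to 40.3) and 23.8% (14 to 36.2). Every interval overlapped that of WT. The difference between urt1 and WT was -11.3 points (-23.8 to -0.811), a 1.90-fold lower share and so short of 2-fold. It was -23.3 points in sequencing lane 1 and -1.75 points in lane 2. The difference was -6.31 points (-19.5 to 5.45) between urt1 xrn4 and WT, and -7.50 (-23.0 to 5.51) between urt1 xrn4 and xrn4. It was 1.19 points (-14.6 to 18.1) between xrn4 and WT, and 5 (-3.10 to 13.8) between urt1 xrn4 and urt1. These 4 intervals include 0 and also differences of 13 points or more, so neither a difference nor its absence can be read from them.

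LHCB2.3 was read too rarely for most comparisons. It had 5 uridylated tails of 25 in urt1 xrn4, 1 of 33 in urt1, 0 of 3 in xrn4 and 7 of 16 in WT, or 20%, 3.03%, 0% and 43.75%. The 3 tails in xrn4 are too few to limit the share there. The difference between urt1 and WT was -40.7 points (-63.9 to -16.7), and between urt1 xrn4 and urt1 it was 17.0 points (0.384 to 36.3). In WT, 5 of the 7 uridylated tails were 1 identical end of 9 A and 1 U, and with identical ends counted once 3 of 8 tails (37.5%) were uridylated. The order urt1, urt1 xrn4, WT was that of LHCB2.2, on few tails.

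**Figure D1:**
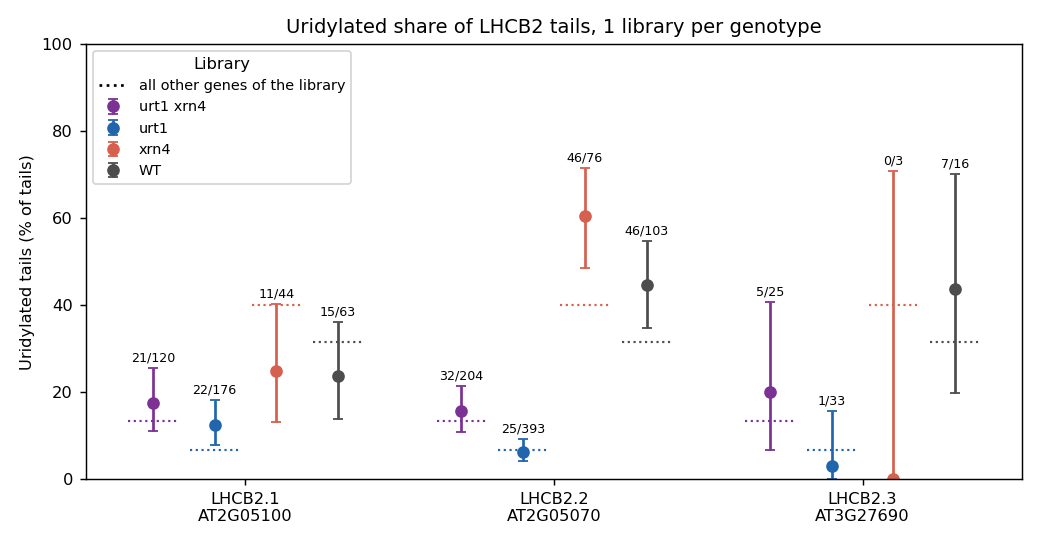
Uridylated tails (% of tails, y axis) of each LHCB2 gene (x axis) in 1 library per genotype, with exact 95% counting intervals, counts of uridylated over all tails above each point, and dotted lines for all other genes of the same library. LHCB2.2 stands at 60.5% in xrn4 and 44.7% in WT, above the dotted lines, and at 6.36% in urt1, beside its line, while the 4 intervals of LHCB2.1 overlap one another.

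Summed over the 3 genes, 16.6% of tails (12.9 to 20.9) were uridylated in urt1 xrn4, 7.97% (5.94 to 10.4) in urt1, 46.3% (37.3 to 55.6) in xrn4 and 37.4% (30.3 to 44.8) in WT. All other genes of the same libraries had 13.3%, 6.86%, 40.1% and 31.6%. This pooled value of all other genes lay within the interval of LHCB2 in each library. Over single genes with 20 or more tails, the median share was 5.37% in urt1 xrn4, 3.85% in urt1, 31.9% in xrn4 and 17.8% in WT. These medians lay below the interval of LHCB2 in each library. The difference in the summed share was -29.4 points (-36.9 to -22.3) in urt1 minus WT, -29.7 points (-39.2 to -20.2) in urt1 xrn4 minus xrn4 and -20.7 points (-28.8 to -12.8) in urt1 xrn4 minus WT. It was higher by 8.65 points in urt1 xrn4 than in urt1 (4.35 to 13.3). The difference of 8.98 points between xrn4 and WT had an interval that includes 0 (-2.23 to 20). With identical ends counted once, the differences were -20.8 points in urt1 minus WT, -12.3 in urt1 xrn4 minus xrn4, -13.6 in urt1 xrn4 minus WT and 7.21 in urt1 xrn4 minus urt1, and xrn4 minus WT turned to -1.22 points. These values carry the limit of that count described for LHCB2.2.

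**Figure D2:**
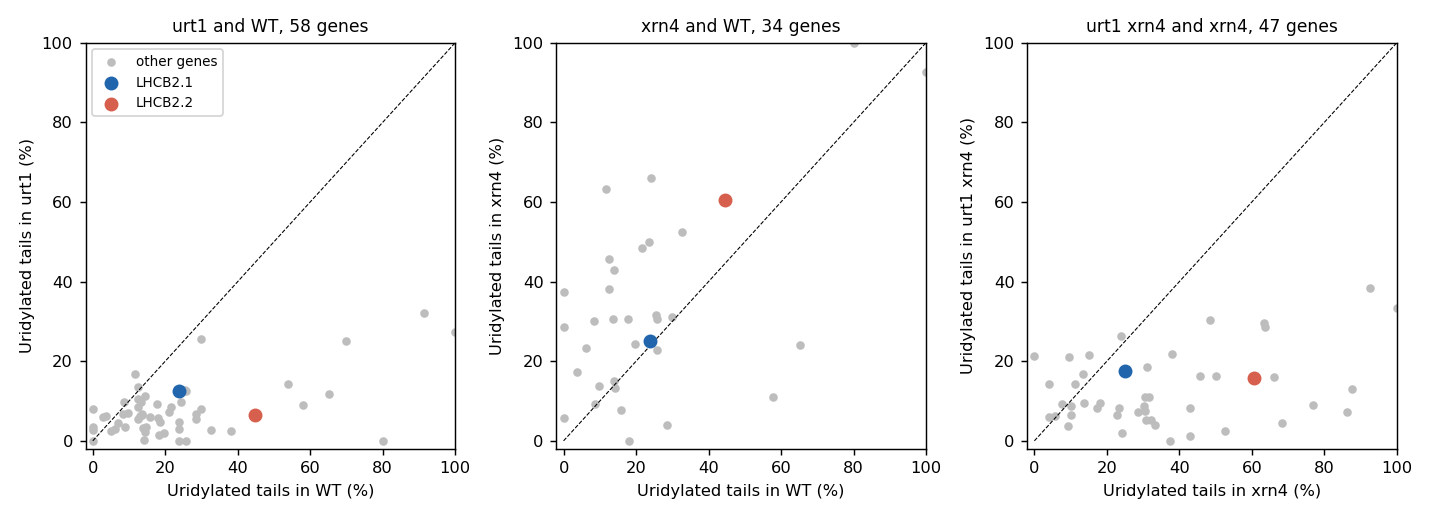
Uridylated tails (%) of single genes with 20 or more tails in each library compared, for urt1 and WT (58 genes), xrn4 and WT (34 genes) and urt1 xrn4 and xrn4 (47 genes); the first-named library is on the y axis and the dashed line marks equal shares. LHCB2.2 lies far below the line in the first and last panels (6.36% against 44.7%, and 15.7% against 60.5%), and LHCB2.1 lies closer to it.

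The share of LHCB2.1 was lower than that of LHCB2.2 in xrn4 and WT, and the difference in the libraries with urt1-1 depended on how identical ends were counted. LHCB2.1 was below LHCB2.2 in xrn4 (difference -35.5 points, -50.1 to -17.2) and in WT (-20.9 points, -33.9 to -5.84). In urt1, LHCB2.1 was higher by 6.14 points (1.14 to 12.2), and in urt1 xrn4 the difference was 1.81 points (-6.23 to 10.7). With identical ends counted once LHCB2.1 was below LHCB2.2 in all 4 libraries, by differences of -8.46 points in urt1 xrn4, -7.65 in urt1, -25.7 in xrn4 and -16.4 in WT. In urt1 LHCB2.2 had 350 unmodified tails and LHCB2.1 had 144, so this count removes more unmodified tails of LHCB2.2. Over single genes with at least 20 tails, 56 of 236 in urt1 xrn4 and 108 of 352 in urt1 had a higher share than LHCB2.2, against 14 of 56 in xrn4 and 7 of 58 in WT. For LHCB2.1 these numbers were 48 in urt1 xrn4, 45 in urt1, 35 in xrn4 and 18 in WT.

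Some uridylated ends of LHCB2.1 have letters that also occur in the gene itself. They were 9 of its 21 uridylated tails in urt1 xrn4, with up to 8 A, 10 of 22 in urt1, 0 of 11 in xrn4 and 5 of 15 in WT. In urt1 and WT all of them were 1 end. Of its uridylated tails, 10 of 22 in urt1 (45.5%) and 5 of 15 in WT (33.3%) were the same end of 4 A and 2 U, against 0 of 21 in urt1 xrn4 and 0 of 11 in xrn4. The letters AAAATT, preceded by another base than A, are encoded in the 3′ UTR of LHCB2.1, 327 bases after the stop codon, in tgctttggttcgAAAATTttcgga at chr2:1823111-1823134 on the minus strand of TAIR10.1 (match in capitals). Only the strand of the gene was searched, and 57.8% of 19202 coding loci hold these letters in a region of 1691 bases. Whether these reads were tails or gene sequence was not tested. Without all tails of 4 A, the shares of LHCB2.1 were 14.3% (15 of 105) in urt1 xrn4, 7.59% (12 of 158) in urt1, 26.2% (11 of 42) in xrn4 and 17.5% (10 of 57) in WT, and urt1 was then more than 2-fold below WT. The longest A run in the gene is 8 bases for LHCB2.1, 4 for LHCB2.2 and 7 for LHCB2.3, and 77.7%, 98.3% and 77.9% of their reads had a longer A tract.

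The number of U per uridylated tail of LHCB2.2 was lowest in urt1. The mean was 1.81 in urt1 xrn4 (32 tails), 1.12 in urt1 (25), 2.41 in xrn4 (46) and 1.8 in WT (46). A single U made up 53.1% of these tails in urt1 xrn4, 88.0% in urt1, 19.6% in xrn4 and 60.9% in WT. At least 3 U were found on 21.9%, 0%, 43.5% and 32.6%, the 0 of 25 in urt1 allowing up to 12%. The difference of the mean in urt1 minus WT was -0.684 U (SE over reads 0.174), and a mean at least 0.5 lower was found in 28.6% of 14 genes with 10 or more uridylated tails in each. The mean in xrn4 was 0.609 U above WT (SE 0.218), where 57.1% of 14 genes were at least 0.5 higher. In urt1 xrn4 it was 0.693 U above urt1 (SE 0.199), where 34.8% of 23 genes were at least 0.5 higher. In urt1 xrn4 minus xrn4 it was -0.601 U (SE 0.239), where 56.2% of 16 genes were at least 0.5 lower. That last difference turned to 0.0152 U when extensions of U only were used. The difference between urt1 xrn4 and WT was 0.00815 U, where 20% of 10 genes were at least 0.5 lower.

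Tails of exactly 2 U were scarce on LHCB2.2 in WT. They were 3 of its 46 uridylated tails, or 6.52% (1.37 to 17.9), while the median over 34 genes with at least 10 uridylated tails was 51.7% and 3 of these genes were lower. With identical ends counted once the share was 13.6% (3 of 22). In xrn4, 37.0% of the uridylated tails of LHCB2.2 had 2 U, against a median of 36.4% over 85 genes. The WT tails of LHCB2.2 thus split between 1 U (28 tails) and at least 3 U (15 tails).

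On LHCB2.1 the same count rests on 11 to 22 tails per library. The mean was 1.38 in urt1 xrn4, 1.91 in urt1, 3.09 in xrn4 and 1.93 in WT. At least 3 U were found on 1 of 21 uridylated tails in urt1 xrn4, 3 of 22 in urt1, 6 of 11 in xrn4 and 3 of 15 in WT. The lowest mean was thus in urt1 xrn4. The difference was -1.71 U (SE 0.593) in urt1 xrn4 minus xrn4, -0.552 U (SE 0.223) in urt1 xrn4 minus WT and -0.528 U (SE 0.235) in urt1 xrn4 minus urt1, where 17.4% of 23 genes were at least 0.5 lower. Between xrn4 and WT it was 1.16 U (SE 0.607), and between urt1 and WT it was -0.0242 U (SE 0.268). The value in urt1 includes the 10 tails of 4 A and 2 U described above. The difference between the 2 genes in urt1 minus WT was not tested.

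**Figure D3:**
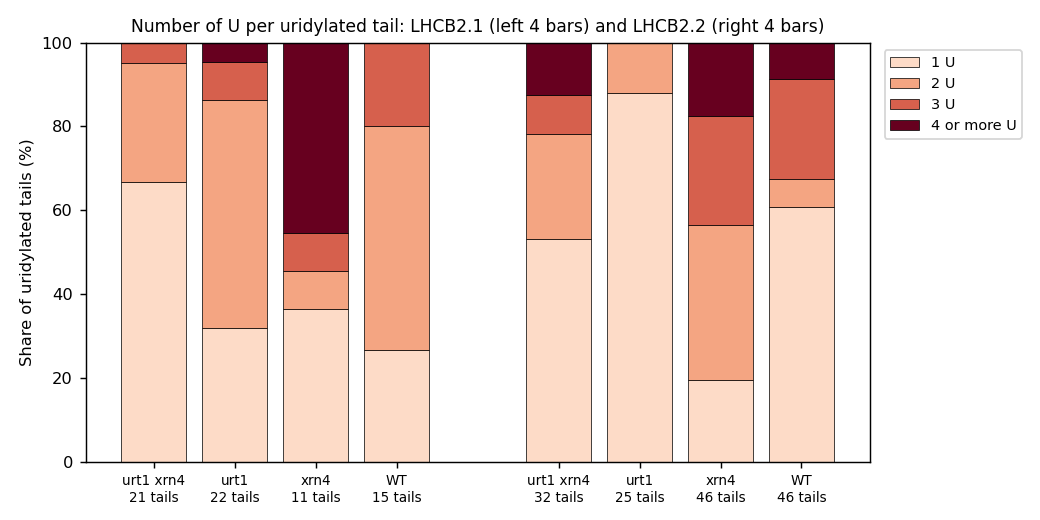
Share of uridylated tails (%, y axis) with 1, 2, 3 and 4 or more U for LHCB2.1 (left 4 bars) and LHCB2.2 (right 4 bars) in each library, with the number of uridylated tails under each bar. For LHCB2.2, 88.0% of tails in urt1 have a single U against 19.6% in xrn4, and 2 U are scarce in WT (6.52%).

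A pattern of mixed letters was seen on LHCB2.2 in xrn4. The extension TATTT, written from the A tract outwards, was on 8 of its 46 uridylated tails (17.4%), at 4 different A lengths, and on none in the other 3 libraries. Of these reads, 5 were 1 identical end with 8 A, and those at 6, 7 and 12 A were single reads. How often another extension is as concentrated on 1 gene was not counted. Over all genes the same extension was on 17 of 3939 uridylated tails (0.432%) in xrn4, in 6 genes, so LHCB2.2 held 8 of these 17 reads. It was read 11 times in urt1 xrn4, 4 times in urt1 and 5 times in WT. Mixed extensions of U and A were 10 of 32 uridylated LHCB2.2 tails in urt1 xrn4, 4 of 25 in urt1, 13 of 46 in xrn4 and 5 of 46 in WT.

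Extensions of G were frequent on LHCB2.1 in 2 libraries. They were 12.5% of its tails in urt1 xrn4 (15 of 120), 2.27% in urt1 (4 of 176), 27.3% in xrn4 (12 of 44, 15.0 to 42.8) and 1.59% in WT (1 of 63, 0.0402 to 8.53). The libraries with xrn4-3 were thus above those without it for this gene. At least 10% of tails with G were found in 24.2% of 236 genes in urt1 xrn4, 19.9% of 352 in urt1, 17.9% of 56 in xrn4 and 22.4% of 58 in WT, and LHCB2.1 was among them in urt1 xrn4 and xrn4. In xrn4, 6 of the 12 G tails were 1 identical end, aaaaaaaaG. On LHCB2.2 the G tails were 5.88% in urt1 xrn4, 3.56% in urt1, 1.32% in xrn4 and 0% in WT (0 of 103, which allows up to 2.91%). With tails of G and C left out, LHCB2.1 was uridylated at 36.7% in xrn4 against 24.6% in WT.

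A tracts of LHCB2.1 and LHCB2.2 were shorter on average in each mutant than in WT. For LHCB2.1 the mean was 14.6 ± 7.35 nt in urt1 xrn4, 13.8 ± 5.76 in urt1, 13.2 ± 6.47 in xrn4 and 16.0 ± 5.85 in WT (SD over reads). For LHCB2.2 it was 14.6 ± 5.50 nt, 14.4 ± 5.15, 14 ± 5.81 and 16.1 ± 5.21 in the same order of libraries. The spread over reads was larger than any of these differences, which lay between 1 and 3 nt. With identical ends counted once, 3 of the 6 were under 1 nt: -0.932 nt for LHCB2.1 in urt1 minus WT, -0.389 nt for LHCB2.1 and -0.632 nt for LHCB2.2 in urt1 xrn4 minus WT. Such a count gives each A length read on unmodified tails the same weight. In urt1 minus WT the difference was -2.19 nt (SE 0.855) for LHCB2.1 and -1.67 nt (SE 0.575) for LHCB2.2, and 44.8% of 58 genes were at least 1 nt shorter. In xrn4 minus WT it was -2.78 nt (SE 1.22) for LHCB2.1 and -2.13 nt (SE 0.841) for LHCB2.2, and 67.6% of 34 genes were at least 1 nt shorter. In urt1 xrn4 minus WT it was -1.43 nt (SE 0.996) for LHCB2.1 and -1.48 nt (SE 0.642) for LHCB2.2, and 62.3% of 53 genes were at least 1 nt shorter. Over these genes the median difference from WT was -0.841 nt for urt1, -1.86 nt for xrn4 and -1.60 nt for the double mutant. LHCB2.1 was longer in urt1 xrn4 than in xrn4 by 1.35 nt (SE 1.18) and LHCB2.2 by 0.654 nt (SE 0.770), where 31.9% of 47 genes were at least 1 nt longer. Between urt1 xrn4 and urt1 the differences were 0.763 nt (SE 0.799) and 0.187 nt (SE 0.465), where 22.7% of 203 genes were at least 1 nt longer. LHCB2.3 averaged 12.8, 11.6, 18 and 13.8 nt in urt1 xrn4, urt1, xrn4 and WT, the value in xrn4 being that of 3 tails.

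Uridylated tails had fewer A on average than unmodified ones of the same gene, for all 3 genes and in each library where both were read. On LHCB2.2, uridylated tails averaged 10.7 A in urt1 xrn4, 13.1 in urt1, 11.3 in xrn4 and 14.6 in WT. Its unmodified tails averaged 15.3, 14.7, 18.6 and 17.4 A. The shorter mean of LHCB2.2 in xrn4 than in WT was not found on unmodified tails, where the sign turned (1.27 nt longer in xrn4). On LHCB2.1, uridylated tails averaged 8.67, 9, 10.5 and 10.7 A and unmodified tails 16.2, 14.7, 14.8 and 18.2 A in the same order of libraries.

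The uridylated tails of LHCB2.2 in WT were mostly not the shortest ones. Among tails of 10 to 25 A, 21 of 160 were uridylated in urt1 xrn4, 21 of 319 in urt1, 27 of 49 in xrn4 and 44 of 93 in WT. Among tails of 4 to 9 A the counts were 11 of 38, 4 of 68, 19 of 22 and 2 of 7. Of the 46 uridylated tails in xrn4, 19 had 9 A or fewer, against 2 of the 46 in WT. Most of these 19 were repeated ends: 9 A with TT (6 reads), 8 A with TATTT (5) and 8 A with TTT (4). No LHCB2 tail of 26 to 30 A was uridylated in any library, out of 18 in urt1 xrn4, 11 in urt1, 8 in xrn4 and 4 in WT over the 3 genes. A count of 0 then allows shares up to 16.7%, 27.3%, 37.5% and 75%, and over all genes that class had 3.10%, 2.68%, 9.92% and 7.27%.

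**Figure D4:**
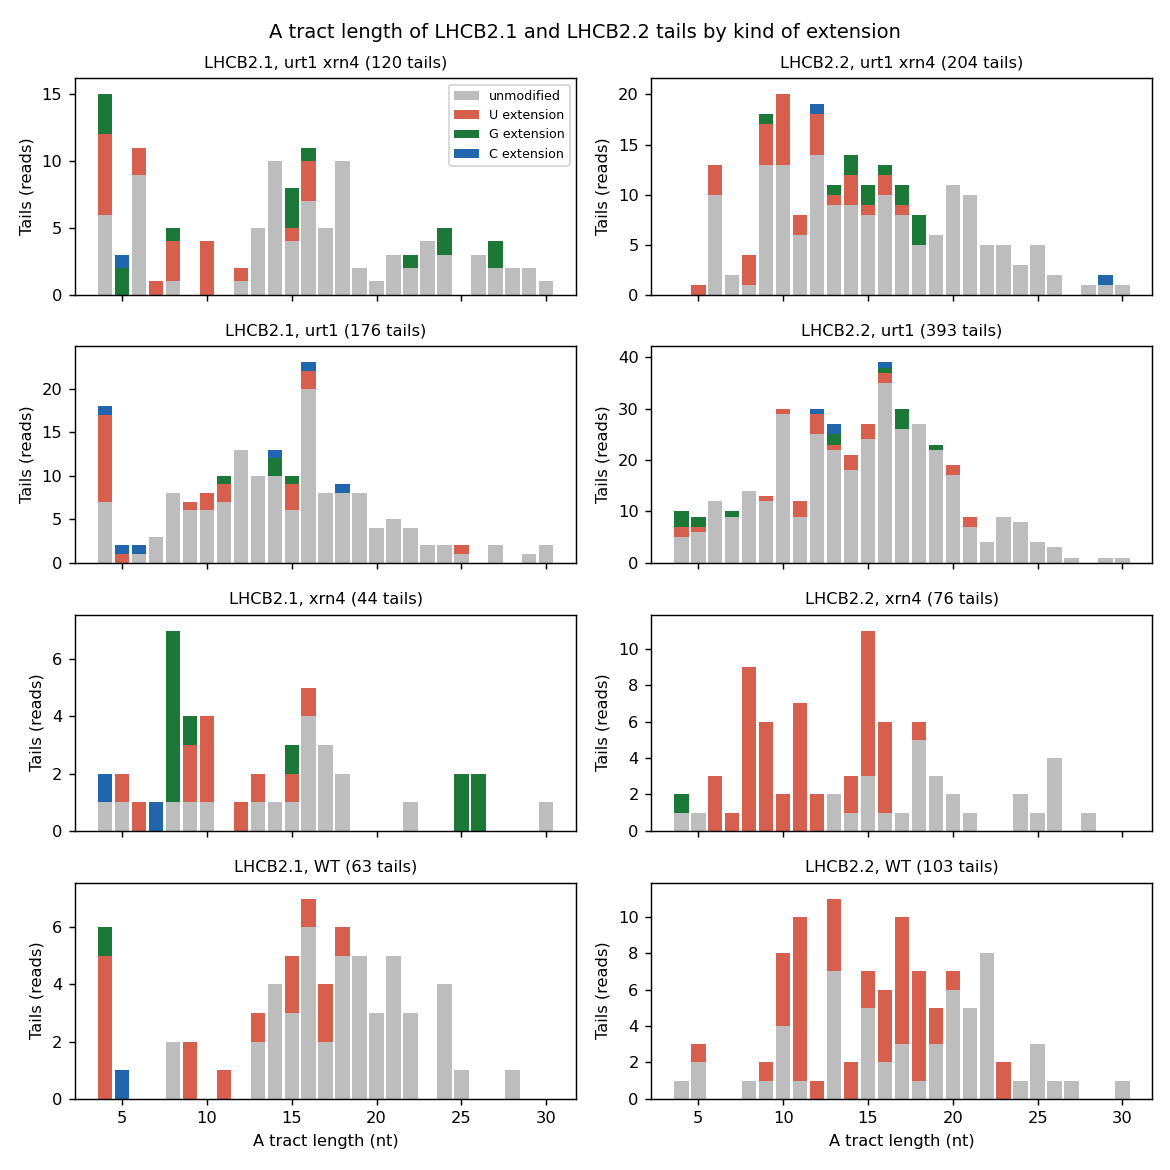
Number of tails (y axis, reads) by A tract length (x axis, nt) for LHCB2.1 (left) and LHCB2.2 (right) in each library from urt1 xrn4 at the top to WT at the bottom, coloured by kind of extension, with a y scale of its own in each panel. Uridylated LHCB2.2 tails lie below 20 A in xrn4, where their mean is 11.3 A, and spread over longer tracts in WT, where it is 14.6 A.

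The share of a library's reads that fell on LHCB2 was lower in the mutants than in WT on the table's totals, by less than 2-fold except for LHCB2.3. For the 3 genes summed, this direction did not hold in urt1 and urt1 xrn4 with trimmed mean scaling, as given below. LHCB2.2 had 7757 CPM in urt1 xrn4, 9057 in urt1, 7757 in xrn4 and 9996 in WT. LHCB2.1 had 4563, 4056, 4491 and 6114, and LHCB2.3 had 951, 761, 306 and 1553. The values are shares of reads with 4 to 30 A, and fewer cells expressing a gene cannot be told apart from less of its RNA per cell. Against WT, the log2 ratio in urt1 was -0.60 (-1.01 to -0.15) for LHCB2.1, -0.15 (-0.46 to 0.19) for LHCB2.2 and -1.05 (-1.93 to -0.07) for LHCB2.3. Only LHCB2.3 was 2-fold lower or more, as were 12.5% of 440 genes with 20 or more reads over the pair of libraries. The ratio of LHCB2.3 was -0.13 with trimmed mean scaling, -0.90 with median of ratios scaling, -0.92 on unmodified tails and -0.67 with identical ends counted once, all short of 2-fold. The median log2 ratio over those genes was 0.31. In xrn4 over WT the log2 ratio was -0.44 for LHCB2.1 and -0.36 for LHCB2.2, with a median of 0.07 over 138 genes, of which 18.1% were 2-fold lower or more. LHCB2.3 had -2.16 there (-4.76 to -0.54), on 3 reads in xrn4, as many as a count of 0 was taken to allow. Its reads over that pair were under the minimum of 20. In urt1 xrn4 over WT the log2 ratio was -0.43, -0.37 and -0.72 for LHCB2.1, LHCB2.2 and LHCB2.3, with a median of 0.50 over 315 genes, of which 13% were 2-fold lower or more. In urt1 xrn4 over xrn4 it was 0.01, -0.01 and 1.44, the last (-0.08 to 4.01) resting on 3 reads of LHCB2.3 in xrn4, and 34.3% of 327 genes were at least 2-fold higher. In urt1 xrn4 over urt1 it was 0.17, -0.22 and 0.33. These ratios depended on the scaling and on how identical ends were counted. For the 3 genes summed, urt1 over WT was -0.35 on the table's totals and 0.57 with trimmed mean scaling, so no direction is given for it. Likewise urt1 xrn4 over WT was -0.41 on the totals and 0.022 with trimmed mean scaling. With identical ends counted once, urt1 over WT was -1.03, and xrn4 over WT was 0.061 against -0.49 on the totals. That count depends on depth and does not bear on direction. Distinct ends were 18.9% of LHCB2 reads in urt1 and 41.2% in WT, against 47.1% and 64.2% over all genes.

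The 2 sequencing lanes named in the read identifiers each held all 4 libraries, and LHCB2.2 reads were split unevenly between them. Lane 1 held 58.3% of LHCB2.2 reads in urt1 xrn4 (51.2 to 65.2), 65.1% in urt1 (60.2 to 69.8), 60.5% in xrn4 (48.6 to 71.6) and 47.6% in WT. It held 49.3%, 49.3%, 48.1% and 47.3% of all reads of those libraries. LHCB2.2 was the 1 gene whose interval left out the library's value among 236 genes in urt1 xrn4, 352 in urt1 and 56 in xrn4. The log2 ratio of reads of LHCB2.2 in urt1 over WT was 0.24 in lane 1 and -0.68 in lane 2. The order of the libraries by its uridylated share was the same in both lanes. In lane 1 it was 13.4% in urt1 xrn4, 6.64% in urt1, 63.0% in xrn4 and 44.9% in WT, and in lane 2 it was 18.8%, 5.84%, 56.7% and 44.4%. LHCB2.1 was less steady, with 16.7% in xrn4 against 32.0% in WT in lane 1, and 30.8% in xrn4 against 18.4% in WT in lane 2.

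Other antenna genes and genes that act on the antenna were read in a list of 32. LHCB1, the partner of LHCB2 in the trimer, had 5 genes, which together had a uridylated share of 11% (8.88 to 13.4) in urt1 xrn4, 8.82% (7.28 to 10.6) in urt1, 34.5% (29.3 to 40.0) in xrn4 and 15.2% (10.9 to 20.4) in WT. The interval for WT lay below that of LHCB2 summed (30.3 to 44.8), while the intervals overlapped in the other libraries. LHCB2.1 alone had 23.8% in WT (14 to 36.2), which overlapped LHCB1, and the LHCB1 gene LHB1B2 had 25.7% on 35 tails. How many groups of genes lay as far apart was not counted. The minor and linker antenna genes LHCB3 to LHCB7 had 14.8%, 9.38%, 40.3% and 14.6% in the same order of libraries. The photosystem I antenna genes LHCA had 14.1%, 11.7%, 21.1% and 24.1%. The subunits of photosystem I at which phosphorylated LHCII docks (PSAH1, PSAH2, PSAL and PSAO) had 2.86%, 4.50%, 48.0% and 21.2%, on 25 tails in xrn4 and 33 in WT. The LHCII kinases and phosphatase (STN7, STN8 and TAP38), the import and insertion genes and the chlorophyll b genes had at most 17 tails per list and library, too few to compare.

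Over the list, the count of genes at least 2-fold lower was 4 of 10 in urt1 over WT, 4 of 10 in urt1 xrn4 over WT and 6 of 9 in urt1 xrn4 over xrn4, beside 65.5%, 47.2% and 61.7% of all genes compared. In the last of these comparisons 1 of 9 was at least 1.5-fold higher, beside 6.38% of all genes. The median differences were -7.67, -3.68 and -20.6 points, beside -11.3, -8.21 and -20.6 points over all genes. In xrn4 over WT, 5 of 8 genes were at least 1.5-fold higher, beside 47.1% of all 34 genes, and the median was 17.3 points, beside 9.53 points over all genes. In urt1 xrn4 over urt1, 4 of 15 passed 1.5-fold upwards and 2 passed 2-fold downwards, with a median of 1.96 points, beside 2.33 points, 50.2% and 18.7% over all genes. CAB3, CAB1 and LHCB6 had 50 or more tails in every library. CAB3, an LHCB1 gene, was uridylated on 8.73% of tails in urt1 xrn4, 6.77% in urt1, 30.1% in xrn4 and 8.43% in WT. CAB1, another LHCB1 gene, had 7.55%, 9.29%, 30.5% and 17.6%, and LHCB6, a minor antenna protein, had 16.4%, 8.45%, 45.8% and 12.5%. Whether reads of CAB1 and CAB3 could be told apart was not tested. These 3 genes lay below LHCB2.2 both in xrn4, where it had 60.5%, and in WT, where it had 44.7%. The list genes with 50 or more tails in urt1 xrn4 and urt1 but not in every library were CAB2, LHB1B2, LHCB4.2, LHCB5, LHCA1, LHCA4 and PSAL. CAB2, the next LHCB1 gene, had 30.4% in urt1 xrn4 against 8.39% in urt1, and LHCA4 had 21.1% against 10.3%. LHCB5 had 16.9% against 11.4%, and LHCB4.2 16.2% against 12.5%. The other 3 were lower in urt1 xrn4: LHB1B2 with 11% against 12.5%, LHCA1 with 11.1% against 12.7%, and PSAL with 0 of 51 tails against 4 of 60.

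The genes whose 4 uridylated shares were nearest those of each LHCB2 gene were found among 33 genes with at least 20 tails in every library, by root mean square distance over the 4 libraries. Nearest to LHCB2.1 were LHB1B2 (4.38 points), LHCA1 (4.71), CAB1 (6.67), LHCB5 (7.56) and RCA (7.87), of which the first 4 encode antenna proteins and the last Rubisco activase. The 33 genes compared with LHCB2.1 also held the antenna genes CAB2, CAB3, LHCB4.2, LHCB6 and LHCB2.2. Whether antenna genes were more frequent among the nearest 5 than among all 33 was not tested. LHB1B2 had 11% in urt1 xrn4, 12.5% in urt1, 30.5% in xrn4 and 25.7% in WT. Nearest to LHCB2.2 were emb2386, a ribosomal protein L19e gene (10 points), AT1G07940, an elongation factor gene (10.7), LHCB4.2 (12.2), CAB2 (15.0) and LHCB6 (17.7). The distances were larger for LHCB2.2, and emb2386 had 2.38% in urt1 xrn4, 2.61% in urt1, 52.5% in xrn4 and 32.7% in WT. LHCB2.3 had too few reads for this comparison.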

How the data were processed

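The submitters made TAIL-seq libraries from total RNA of seedlings, 1 per genotype, as the labels' protocols state. The build was TAIR10 and the tools named were bedtools 2.17.5, Bowtie2, TopHat2 2.0.9 and CASAVA 1.8.2, per the submitters' processing notes. The deposited table has 1 line per read with genotype, A tract length in nucleotides, added nucleotides, category and locus, per the file headers. The library named by 2 initials was taken as urt1 xrn4, since the other 3 names equal the other labels. Extensions were reversed to read 5′ to 3′, because 2457 of 13708 U extensions are written with A first and 0 with A last.

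A tail was uridylated where the category said so. Shares have Clopper-Pearson 95% intervals, differences Newcombe intervals, and log2 ratios of CPM (0.5 added to each count) exact binomial intervals. A count of 0 was taken to allow 3 counts. Names, coordinates and sequences came from RefSeq's TAIR10.1. Fisher's exact tests between loci were run but are not printed, because the loci were chosen with results known and reads repeat. Members, lists and alternatives were chosen with earlier results of these data known. Named genes were the 3 loci, list genes with 50 or more tails in each library of a comparison, and up to 5 nearest genes. Alternatives counted identical reads once, changed tail limits, the uridylation call, scaling and pseudocount, or used 1 lane. Scripts were tested on simulated data. Python 3.11.15, numpy 2.4.6, pandas 2.3.3, scipy 1.17.1 and matplotlib 3.10.9 were used.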

Additional observations from a re-analysis of the deposited data

Results flagged for a closer look

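G extensions lay outside the uridylation measured here, and their share on LHCB2.1 in xrn4 was above that in WT. On LHCB2.1 they were 27.3% of tails in xrn4 (12 of 44), against 1.59% in WT (1 of 63). In xrn4, 6 of these 12 tails were 1 identical end. LHCB2.1 was chosen for this statement after its values were seen, and 17.9% of 56 genes in xrn4 had at least 10% of tails with G.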

How the results depend on the processing

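Of 484 recomputed values, 434 moved by less than their counting error (counts of genes by less than 1.5 times). Counting identical reads once depends on depth, as described above. With identical reads counted once, the summed uridylated share was -20.8 points in urt1 minus WT and -12.3 in urt1 xrn4 minus xrn4. LHCB2.1 minus LHCB2.2 was -8.46 points in urt1 xrn4 and turned to -7.65 in urt1. In urt1, LHCB2.1 minus LHCB2.3 was 17.0 and LHCB2.2 minus LHCB2.3 24.7 points. The summed log2 share of reads was then -1.03 (urt1 over WT), 0.061 (xrn4 over WT), -0.54 (urt1 xrn4 over xrn4) and 0.55 (urt1 xrn4 over urt1). With trimmed mean scaling it was 0.57 (urt1 over WT), 0.022 (urt1 xrn4 over WT), 0.45 (urt1 xrn4 over xrn4) and -0.55 (urt1 xrn4 over urt1). That scaling moved all genes by 0.92, 0.44, 0.38 and -0.48, and by 0.06 in xrn4 over WT. Median of ratios scaling moved urt1 over WT by 0.15 and urt1 xrn4 over WT by 0.11. By lane, chosen after seeing the data, it was 0.033 and -0.78 in urt1 over WT, and -0.13 and -0.70 in urt1 xrn4 over WT. On unmodified tails the summed A length was -3.24 nt (urt1 minus WT), -0.58 (xrn4 minus WT) and -1.65 (urt1 xrn4 minus xrn4), and LHCB2.2 in xrn4 minus WT turned to 1.27. The mean number of U of LHCB2.2 in urt1 xrn4 minus xrn4 turned to 0.0152 with U only. With no minimum of reads, genes at least 2-fold different were 3151 of 6482 (urt1 over WT), 3652 of 4237 (xrn4 over WT), 3190 of 5335 (urt1 xrn4 over WT), 3194 of 5282 (urt1 xrn4 over xrn4) and 4517 of 7038 (urt1 xrn4 over urt1), against 179 of 440, 51 of 138, 145 of 315, 172 of 327 and 168 of 598 with it. The causes were not tested. No paired analysis was possible because there is 1 library per genotype. Depth limits LHCB2.3 and LHCB2.1 in xrn4 most.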
